A study of Mus musculus with 10 samples.

Results

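The thick ascending limb is the stretch of the loop of Henle that carries tubular fluid back from the medulla into the cortex. The 9 genes described here, Umod, Slc12a1, Kcnj1, Cldn10, Cldn16, Egf, Bsnd, Ppp1r1b and Tmem72, were chosen by name as genes of that segment. All 9 were on the array, among 18193 genes with a probe set of their own. Each gene was read from the probe set with its highest mean over the 10 arrays, and all 9 passed the filter on low values, as did 11486 genes in all. The samples were renal cortex from 10 mice of the FVB/N strain, 20 weeks old, with 1 array per mouse. Every mouse had undergone 2/3 kidney ablation and uninephrectomy. Treatment lasted 6 weeks and began when 6 weeks had passed since the ablation and 4 weeks since the second operation. In 5 mice it was losartan at 500 mg/l, a blocker of the type 1 angiotensin II receptor. The other 5 received aliskiren at 50 mg/kg per day, an inhibitor of renin. Both groups were ablated and treated, so the values speak only to the difference between the drugs, and mice without drug or surgery were not analysed here.

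Cells of the thick ascending limb take up sodium, potassium and chloride together from the lumen, send potassium back through a luminal channel and release chloride at the other side. The lumen becomes positive, and sodium, calcium and magnesium then pass between the cells through pores made of claudins. The segment does not let water through, so this salt uptake both dilutes the urine and feeds the medullary salt gradient, and loop diuretics act on it. Its cells also secrete uromodulin, the most abundant protein of normal urine.

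All expression values are RMA log2 values, on which 1 unit is a doubling, and differences are given as aliskiren minus losartan on the same scale. Errors are the SD over 5 mice, or the SE that limma, a linear model fitted over all genes, gave to a difference. In a sample of whole cortex, fewer cells of a type and less RNA per cell cannot be told apart. The labels do not give cage or operation day. P-values measure the spread between these mice and would not cover a cage or day shared within a drug group. Cortical tissue markers were at high levels: the mean of 15 proximal tubule genes lay between 12.70 and 13.15 over all mice. Mice differed in what else their samples held. Of 8 perirenal fat genes on the array 3 passed the filter, and in losartan mouse 3 their mean was 12.21, where the other losartan mice had 6.50 to 6.64, and its 11 tubular injury genes were at 10.30, the highest of all mice. Aliskiren mice 2 and 3 had fat genes at 8.01 and 9.76, and the other aliskiren mice at 6.40 to 6.60. Cidea, 1 of the 3 fat genes, stood at 11.84 in losartan mouse 3 and at 7.13 and 9.21 in aliskiren mice 2 and 3. In the other mice it lay between 3.69 and 4.33, under the filter level of 5.53. It thus passed the filter only through the mice where it was high. In aliskiren mouse 4 the mean of 6 genes of the thin limb and medulla had its highest value, 9.996, and in losartan mouse 5 it was 9.03, the lowest.

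Between the drugs, 6 of the 9 genes had a higher mean with aliskiren and 3 a lower one, and 0 passed the test. Over all 11486 genes 46.2% had a higher mean. With limma and Benjamini-Hochberg adjustment 0 genes, or 0% of those tested, passed an adjusted p of 0.05, and adjusted p for the 9 genes ran from 0.945 to 0.993. At an unadjusted p under 0.05 there was 1 of the 9, Cldn10, beside 4.72% of all genes. The median difference over the 9 genes was 0.20 and over all genes -0.01. In none of the 9 did the groups separate, and 0.914% of all genes separated. For 5 of the 9 genes the whole 95% confidence interval lay within 1.5-fold on both sides of no change, as it did for 87.7% of all genes. Umod was counted among these by a narrow margin, as its upper limit rounds to 1.5-fold, and its second probe set was not part of the count.

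**Figure D1:**
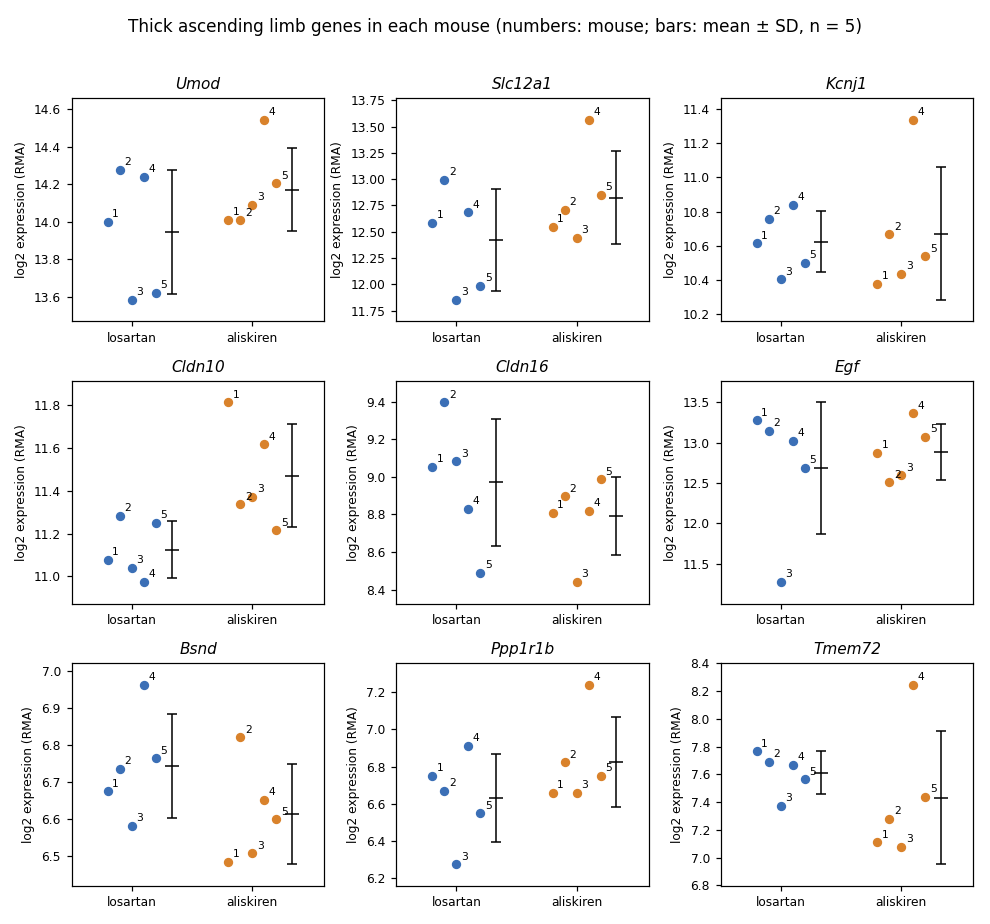
Log2 expression (RMA) of the 9 thick ascending limb genes, 1 point per mouse with the mouse number beside it, and the mean with SD of 5 mice as a bar for each drug. Aliskiren mouse 4 is the highest of the 10 mice for 6 genes and losartan mouse 3 the lowest for 4.

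Umod encodes uromodulin, which forms filaments in urine, supports salt uptake in the limb that makes it and is released partly into the blood. With losartan its log2 values were 14.00, 14.28, 13.58, 14.24 and 13.62 in mice 1 to 5, and with aliskiren 14.01, 14.01, 14.09, 14.54 and 14.21. Losartan mice 3 and 5 lay below all others and aliskiren mouse 4 above all others, and the groups overlapped. The means were 13.95 ± 0.33 (SD, n = 5) and 14.17 ± 0.22, a difference of 0.23 (SE 0.16). Its 95% interval ran from -0.13 to 0.58, and limma's adjusted p was 0.948. Without losartan mouse 3 the difference was 0.14, without losartan mouse 5 it was 0.15, without aliskiren mouse 4 it was 0.13, and without losartan mouse 3 and aliskiren mouse 4 together it was 0.04. A second Umod probe set gave 0.37 (SE 0.20), and its values followed those of the first over the 10 mice (Pearson r = 0.98). The first probe set spanned 0.96 between the lowest and highest mouse and the second 1.25. The highest value of any probe set in the table was 15.06, so the first Umod set lay near the top of the scale, and whether that narrowed its span was not tested.

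Slc12a1 encodes NKCC2, the sodium, potassium and chloride cotransporter on which loop diuretics act. Its values were 12.58, 12.99, 11.85, 12.68 and 11.98 with losartan and 12.55, 12.71, 12.44, 13.56 and 12.85 with aliskiren. As for Umod, losartan mice 3 and 5 were lowest and aliskiren mouse 4 was highest. The means were 12.42 ± 0.48 (SD, n = 5) and 12.82 ± 0.44, and the difference of 0.40 (SE 0.26) was within the spread between mice (limma adjusted p = 0.948). A factor of 1.97 higher with aliskiren was still inside the 95% interval. The difference was 0.26 without losartan mouse 3, 0.22 without aliskiren mouse 4 and 0.08 without both. A second probe set for Slc12a1, with a mean of 3.98, was near the bottom of the scale and gave 0.50 (SE 0.25).

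The stretches before the transcription starts of Umod and Slc12a1 are shown because these genes had the highest correlation of any pair of the 9 over the mice, as described further on. RefSeq promoter windows on GRCm38.p6 were matched by symbol for 7 of the 9 genes, and the 250 bases before the start are printed on the strand of the gene. Umod lies on the minus strand at chr7:119479263-119479512 and Slc12a1 on the plus strand at chr2:125152350-125152599. Both strands were searched for AAGGTCA, the core of the oestrogen-related receptor element, and TATAAA, the TATA box; a match would stand in capitals.
Umod: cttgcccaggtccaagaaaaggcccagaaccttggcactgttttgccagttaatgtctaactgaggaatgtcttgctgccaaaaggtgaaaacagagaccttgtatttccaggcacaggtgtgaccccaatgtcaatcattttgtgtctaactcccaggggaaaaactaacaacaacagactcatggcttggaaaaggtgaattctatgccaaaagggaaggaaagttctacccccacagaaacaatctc
Slc12a1: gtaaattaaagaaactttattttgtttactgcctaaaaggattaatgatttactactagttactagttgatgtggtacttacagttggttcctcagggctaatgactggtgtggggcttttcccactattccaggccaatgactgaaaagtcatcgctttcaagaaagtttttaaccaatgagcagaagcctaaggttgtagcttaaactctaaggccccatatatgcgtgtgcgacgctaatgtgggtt
Neither window held these letters. Of 32851 mouse windows of the same length, 4.08% held AAGGTCA and 12.4% held TATAAA. This describes letters in the window only, and no binding was measured.

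Kcnj1 encodes ROMK, the potassium channel through which potassium returns to the lumen, in the limb as well as in the collecting duct. Its values were 10.61, 10.76, 10.40, 10.84 and 10.50 with losartan and 10.38, 10.67, 10.44, 11.34 and 10.54 with aliskiren. Apart from aliskiren mouse 4, the aliskiren mice lay within or just below the losartan range. The difference was 0.05 (SE 0.17), with a 95% interval from -0.33 to 0.43, and it turned to -0.01 without losartan mouse 3, to -0.12 without aliskiren mouse 4 and to -0.17 without both. Bsnd encodes barttin, a subunit of chloride channels, and is also made in distal tubule and intercalated cells. It ran from 6.58 to 6.96 with losartan and from 6.48 to 6.82 with aliskiren, and no member varied less between mice. The means were 6.74 ± 0.14 (SD, n = 5) and 6.61 ± 0.14, a difference of -0.13 (SE 0.09, limma adjusted p = 0.948), or -0.08 without losartan mouse 4.

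Claudin genes of the limb pointed in opposite directions, and neither passed the test. Cldn10 encodes a claudin whose form in the limb makes the pore for sodium, while another form is made in the proximal tubule. Its values were 11.08, 11.28, 11.04, 10.97 and 11.25 with losartan and 11.81, 11.34, 11.37, 11.62 and 11.22 with aliskiren. All aliskiren mice but mouse 5 lay above every losartan mouse. The means were 11.12 ± 0.13 (SD, n = 5) and 11.47 ± 0.24, a difference of 0.35 (SE 0.12), or 1.27-fold, with a 95% interval from 0.09 to 0.60. The unadjusted p was 0.0128 with limma and 0.0238 by two-sided exact permutation over mice, where 0.00794 is the smallest that 5 against 5 mice can give. Limma's adjusted p was 0.945, so Cldn10 did not pass. Leaving out single mice gave differences from 0.26, without aliskiren mouse 1, to 0.41, and 0.29 remained without losartan mouse 3 and aliskiren mouse 4.

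The Cldn10 gene has a pair of promoter windows in the RefSeq table, both on the plus strand of chromosome 14, at chr14:118787621-118787870 and at chr14:118854700-118854949. Both are shown because the gene had 1 probe set, whose annotation gives the gene only, so its value could not be assigned to a start.
Cldn10, upstream start: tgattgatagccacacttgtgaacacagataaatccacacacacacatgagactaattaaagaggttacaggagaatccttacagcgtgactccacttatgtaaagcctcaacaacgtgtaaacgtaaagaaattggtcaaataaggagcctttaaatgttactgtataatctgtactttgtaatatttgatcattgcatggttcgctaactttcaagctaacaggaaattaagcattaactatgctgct
Cldn10, downstream start: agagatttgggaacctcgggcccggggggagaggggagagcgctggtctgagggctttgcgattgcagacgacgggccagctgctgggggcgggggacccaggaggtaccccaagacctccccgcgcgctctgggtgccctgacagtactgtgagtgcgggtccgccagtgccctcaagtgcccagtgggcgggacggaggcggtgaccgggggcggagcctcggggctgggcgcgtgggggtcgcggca
The upstream window held 36% G and C and the downstream window 72.4%, and neither held AAGGTCA or TATAAA.

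Cldn16 encodes claudin-16, which the limb needs to recover magnesium and calcium between its cells. Its values were 9.05, 9.40, 9.08, 8.83 and 8.49 with losartan and 8.81, 8.90, 8.44, 8.82 and 8.99 with aliskiren. Losartan mouse 2 was highest and aliskiren mouse 3 lowest, and the ranges overlapped over most of their width. The difference was -0.18 (SE 0.16, limma adjusted p = 0.949), or -0.30 without losartan mouse 5 and -0.07 without losartan mouse 2.

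Egf encodes the precursor of epidermal growth factor, a growth factor made in the thick ascending limb and the distal convoluted tubule and shed into urine. With losartan the values were 13.28, 13.15, 11.27, 13.02 and 12.69, and with aliskiren 12.87, 12.51, 12.60, 13.36 and 13.07. Losartan mouse 3, the mouse with the highest injury and fat genes, lay far below all others, and the remaining mice of both groups overlapped. Over the 10 mice Egf had r of -0.90 with the mean of the fat genes, and -0.63 without losartan mouse 3. That mean includes Cidea, which passed the filter only through mice high in it, so these r are a description. With the mean of the injury genes Egf had r of -0.69, and -0.02 without that mouse. The part of injury in the Egf value of losartan mouse 3 was not tested. The difference was 0.20 (SE 0.35) with all mice and 0.13 with the fat genes as a covariate, and it turned to -0.15 without losartan mouse 3. Its 95% interval, from -0.58 to 0.98, was the widest of the 9 genes. The SD within groups was 0.63, above that of 96.8% of all genes tested, and 0.31 without that mouse.

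Ppp1r1b encodes DARPP-32, a protein that inhibits protein phosphatase 1 once protein kinase A has phosphorylated it. It ran from 6.27 to 6.91 with losartan and from 6.66 to 7.24 with aliskiren, lowest in losartan mouse 3 and highest in aliskiren mouse 4. The difference was 0.20 (SE 0.14, limma adjusted p = 0.948), 0.11 without losartan mouse 3, 0.09 without aliskiren mouse 4 and 0.00 without both. Tmem72 encodes a transmembrane protein. Its values were 7.77, 7.69, 7.37, 7.67 and 7.56 with losartan and 7.11, 7.28, 7.08, 8.25 and 7.44 with aliskiren. Aliskiren mice 1, 2 and 3 lay below every losartan mouse and aliskiren mouse 4 above every one. The difference was -0.18 (SE 0.20, limma adjusted p = 0.952), and -0.39 without aliskiren mouse 4.

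**Figure D2:**
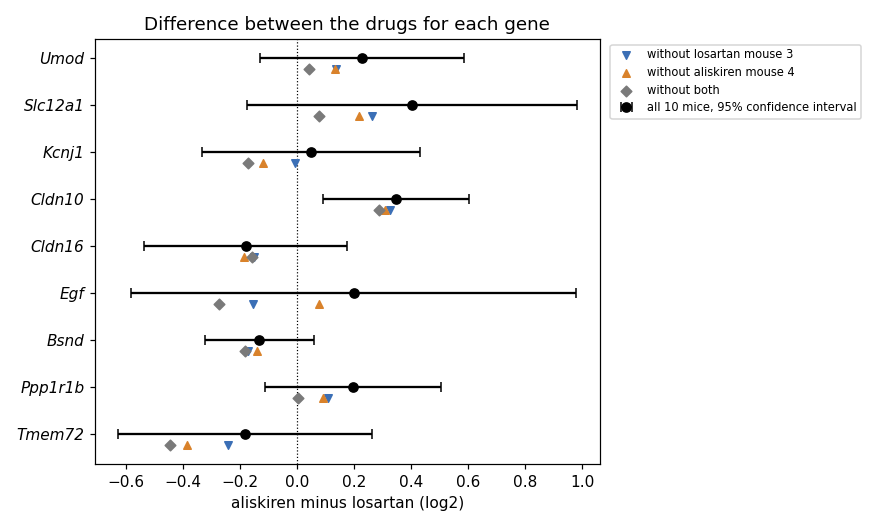
Difference between the drugs (aliskiren minus losartan, log2) for each of the 9 genes: black points and bars are limma's estimate and 95% confidence interval over 10 mice, and coloured marks the estimate without losartan mouse 3, without aliskiren mouse 4 or without both. Only the interval of Cldn10 leaves out 0, and Kcnj1 and Egf change side when mice are left out.

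The spread within a drug group exceeded the difference between groups for most of these genes. The median SD within groups over the 9 genes was 0.28, where the median over all genes tested was 0.14. Slc12a1 had an SD of 0.46, Tmem72 of 0.35, Kcnj1 of 0.30, Umod and Cldn16 of 0.28, Ppp1r1b of 0.24, Cldn10 of 0.20 and Bsnd of 0.14. Aliskiren mouse 4 was the highest of the 10 mice in 6 of the 9 genes, where it was highest in 6.74% of all genes tested. Losartan mouse 3 was lowest in 4 of the 9, where it was lowest in 24.9% of all genes. With both left out, 5 genes had a lower mean with aliskiren instead of 3, and the median difference was -0.16.

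Over the 10 mice, levels of 5 of the genes varied together, a group picked after its values were seen. Pearson's r was 0.96 between Umod and Slc12a1 (Spearman's rho 0.83), 0.89 between Slc12a1 and Ppp1r1b, 0.81 between Slc12a1 and Kcnj1 and 0.75 between Umod and Egf. The 10 pairs of Umod, Slc12a1, Kcnj1, Egf and Ppp1r1b lay between 0.54 and 0.96. Without losartan mouse 3 and aliskiren mouse 4 they lay between 0.20 and 0.90, and Umod with Slc12a1 stayed highest among them at 0.90. After the mean of each drug group was subtracted, r between Umod and Slc12a1 was 0.95. These correlations describe 10 mice whose values come from the same arrays, and no test was made of them.

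The claudins and barttin stood outside that group. Cldn10 had r of 0.31 with Umod and -0.53 with Bsnd, and Cldn16 had 0.19 with Umod and 0.27 with Slc12a1. Tmem72 was closest to Kcnj1 at 0.87, and its r with the genes of that group ran from 0.50 to 0.87. After the mean of each drug group was subtracted they ran from 0.58 with Egf to 0.93 with Kcnj1. Without losartan mouse 3 and aliskiren mouse 4 they ran from 0.09 with Umod to 0.71 with Egf. The border of the group was therefore not sharp. Without losartan mouse 3 and aliskiren mouse 4, Cldn16 with Slc12a1 was at 0.83 and Cldn10 with Kcnj1 at -0.71, so the pattern of these pairs changed with the mice included.

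**Figure D3:**
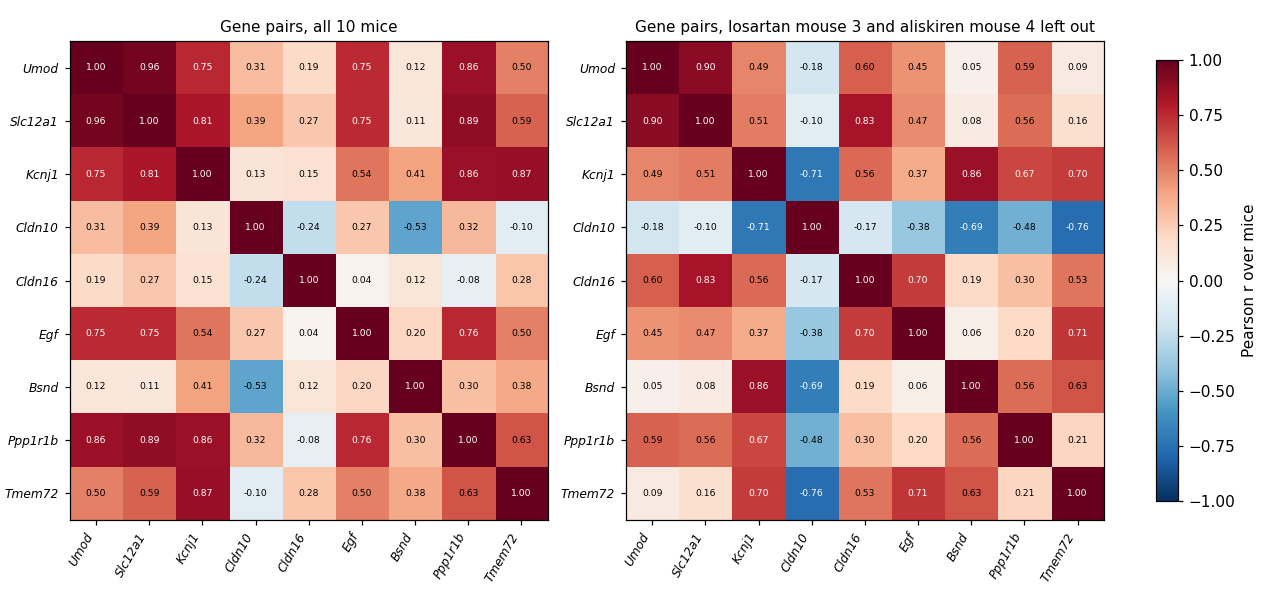
Pearson r over mice for each pair of the 9 genes, with all 10 mice at left and without losartan mouse 3 and aliskiren mouse 4 at right; red is positive and blue negative. Umod and Slc12a1 are at 0.96 and 0.90, and the row of Cldn10 is pale at left and blue at right.

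Among the 11477 other genes tested, Irx1 had the level most like that of Umod and also that of Slc12a1. Irx1 encodes an Iroquois homeobox transcription factor of the intermediate nephron. Its values were 8.01, 8.52, 6.66, 8.60 and 6.92 with losartan and 8.02, 7.99, 7.83, 9.30 and 8.37 with aliskiren, again lowest in losartan mice 3 and 5 and highest in aliskiren mouse 4. Pearson's r was 0.985 with Umod and 0.97 with Slc12a1 over 10 mice, and 0.96 and 0.93 without losartan mouse 3 and aliskiren mouse 4. For Umod the next were Fam107a at 0.97, Methig1 at 0.95, Slc22a13, a gene of the organic anion transporter family, at 0.95 and Slco4c1, an organic anion transporter gene, at 0.95. For Slc12a1 they were Eral1 at 0.96, the Iroquois gene Irx2 at 0.96, Bicdl1 at 0.95 and Ddx46 at 0.93. These genes were picked as the highest r among all genes, so their r is a description. None of the 9 passed between drugs: Irx1 differed by 0.56 (SE 0.43), or by 0.29 without losartan mouse 3 and by 0.31 without aliskiren mouse 4. The other 8 differed by 0.05 to 0.93, the highest being Slco4c1, which was at 0.39 without losartan mouse 3.

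**Figure D4:**
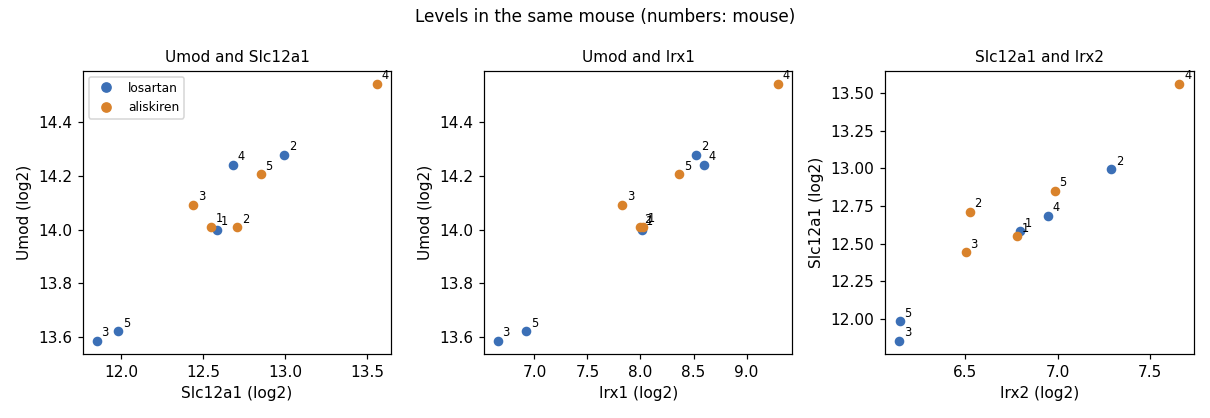
Log2 level of Umod against Slc12a1 and Irx1, and of Slc12a1 against Irx2, 1 point per mouse with its number, blue for losartan and orange for aliskiren. Losartan mice 3 and 5 lie at the lower left and aliskiren mouse 4 at the upper right in all 3 panels.

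Other genes named with the segment were taken from lists of its transport partners, its regulators, its junction genes and its transcription factors and further markers. These lists were not limited to genes of the limb alone, and Avpr2 is also on the list of collecting duct principal cells. In whole cortex their values cannot be assigned to the limb. Of 45 tested genes of these lists 0 passed limma's adjusted threshold. Limma's unadjusted p was under 0.05 for Kcnj10, Wnk1 and Tmem52b, where 4.72% of all genes tested were under it. Of these 45, 9 had r above 0.7 with Slc12a1, or 20%, where 2.94% of all genes did. With Umod 9 also did, where 4.03% of all genes did. Of the 15 transcription factors and further markers, 6 followed Slc12a1 in this way and 5 followed Umod, and of the 6 junction genes 0 did for either. In the thin limb and medulla list 2 of 6 genes did for Slc12a1, or 33.3%, and 1 for Umod, or 16.7%. The median r of that list was 0.62 with Slc12a1 and 0.66 with Umod, where the 45 genes had 0.23 and 0.28. This likeness was therefore not particular to the lists of the limb.

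Partners of salt transport had a median difference of 0.02 over 8 tested genes, 4 higher and 4 lower. Kcnj10, a basolateral potassium channel gene of the limb and the distal tubule, had means of 8.63 ± 0.23 (SD, n = 5) under losartan and 8.32 ± 0.13 under aliskiren, which differed by -0.32 (SE 0.11), and its partner Kcnj16 had 0.09 (SE 0.07), or 0.03 without losartan mouse 3. The sodium and proton exchanger gene Slc9a3 had 0.22 (SE 0.18), or 0.07 without losartan mouse 3. Regulators of NKCC2 had lower means in 11 of 16 genes, with a median of -0.03. The smallest p were those of the WNK kinase genes Wnk1 at -0.25 (SE 0.09) and Wnk4 at -0.18 (SE 0.10) and of the adenylyl cyclase gene Adcy6 at -0.15 (SE 0.10). With the mean of all its probe sets Wnk1 was at -0.08.

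Junction genes split 3 and 3, with the occludin gene Ocln at 0.16 (SE 0.11) and the cingulin gene Cgn at 0.11 (SE 0.12). In the list of transcription factors and further markers 10 of 15 genes had a higher mean, at a median difference of 0.06. Tmem52b, a transmembrane protein gene, had the smallest p there and went the other way. Its values were 11.40, 10.97, 11.43, 10.76 and 11.03 with losartan and 10.70, 10.80, 10.72, 10.62 and 10.61 with aliskiren. All aliskiren mice but mouse 2 lay below every losartan mouse, and the difference was -0.43 (SE 0.13, limma adjusted p = 0.945). Wfdc2, which encodes a secreted protease inhibitor, had -0.36 (SE 0.29). Its highest value, 12.33, was that of losartan mouse 3, and the difference was -0.08 when this mouse was left out.

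Neighbouring segments gave other values. In the distal convoluted tubule, which follows the limb, 7 of 8 tested genes had a lower mean with aliskiren and the median difference was -0.35. Over all genes tested, 46.2% had a higher mean. The median of the 9 limb genes was 0.20, and it ran from -0.01 to 0.27 with single mice left out. Slc12a3, the thiazide-sensitive cotransporter gene, differed by -0.57 (SE 0.14), the magnesium channel gene Trpm6 by -0.49 (SE 0.12) and Cwh43 by -0.41 (SE 0.15), none past limma's adjusted threshold (adjusted p = 0.945). With the mean of all probe sets of a gene, Slc12a3 was at -0.36 and Trpm6 at -0.24. With single mice left out, Slc12a3 ran from -0.63 to -0.42. Macula densa genes, those of the plaque of cells at the end of the limb, had a median of -0.11 over 4 genes, and Ptges, which encodes an enzyme of prostaglandin E2 synthesis, had -0.45 (SE 0.17), or -0.27 without losartan mouse 3 and -0.22 with the mean of its probe sets. Medians of the lists were -0.30 for principal cells, -0.19 for intercalated cells and 0.05 for the proximal tubule. The difference between these lists and the limb genes was not tested.

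Genes of the medulla varied with some of the limb genes from mouse to mouse. The list of the thin limb and medulla, 6 of 11 genes tested, had a mean between 9.03 and 9.74 with losartan and between 9.30 and 9.996 with aliskiren. Its deviation from the mean of all mice was 0.51 in aliskiren mouse 4 and -0.46 in losartan mouse 5, where the limb genes had 0.46 and -0.20. In losartan mouse 3 the medulla list was at 0.05 and the limb genes at -0.42. The osmolyte transporter gene Slc5a3 stood at 11.995 in aliskiren mouse 4 and at 10.17 in losartan mouse 5, and the small heat shock protein gene Cryab at 11.08 and 8.56. Cldn4, another claudin gene of the list, stood at 7.78 in aliskiren mouse 4 and was highest in losartan mouse 3, at 9.62. Over the 10 mice the list's mean had r of 0.72 with Umod, 0.73 with Slc12a1, 0.77 with Kcnj1, 0.64 with Tmem72, 0.57 with Ppp1r1b and 0.52 with Cldn16. Egf at 0.27, Cldn10 at 0.17 and Bsnd at 0.09 followed it little. Without losartan mouse 3 and aliskiren mouse 4, r was 0.88 with Umod, 0.87 with Slc12a1, 0.65 with Kcnj1 and 0.31 with Tmem72. In the same mice it was 0.77 with Cldn16, 0.57 with Egf and 0.56 with Ppp1r1b. The list of collecting duct principal cells, which shares Fxyd4 with the medulla list, was also high in aliskiren mouse 4, at 0.42 above its mean. Its r was 0.70 with Kcnj1, 0.75 with Tmem72 and 0.32 with Umod, or 0.90, 0.86 and 0.67 without losartan mouse 3. Without losartan mouse 3 and aliskiren mouse 4 it was 0.97, 0.79 and 0.48. With the list as a covariate, leaving out its member Aqp1, which the proximal tubule also makes, the differences of the 9 genes kept their signs, among them Umod at 0.20, Slc12a1 at 0.36 and Cldn10 at 0.34. Slc14a2, a urea transporter gene of the inner medulla named after its values were seen, lay between 5.70 and 6.16 in all mice. That is close to the filter level of 5.53, so its narrow range says little about the medulla. The part of the depth of cortex sampled in these values was not tested.

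**Figure D5:**
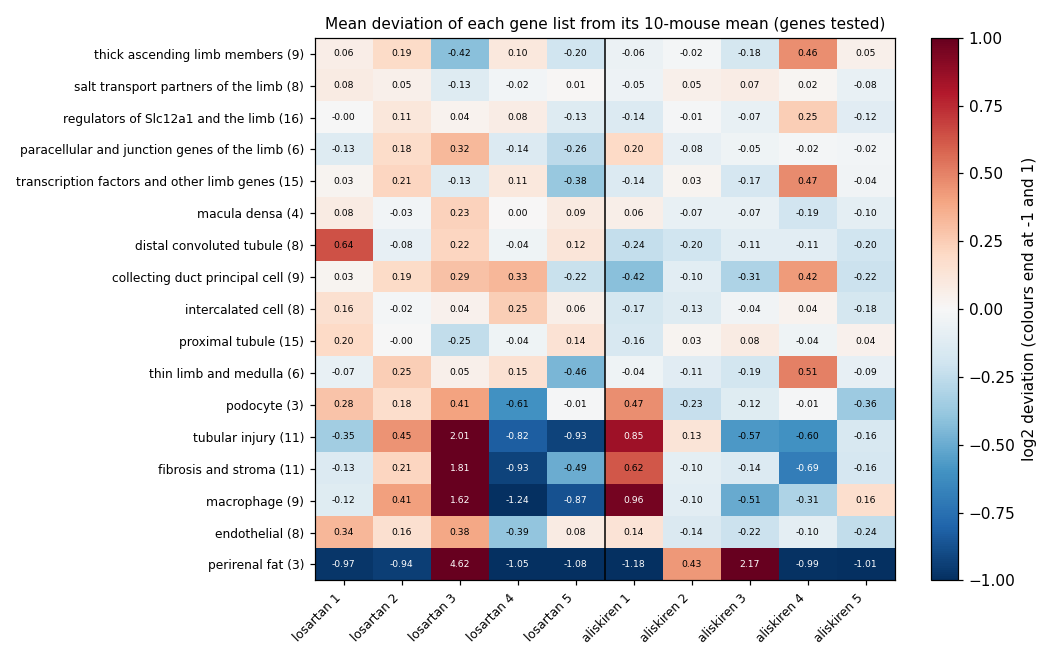
Mean deviation (log2) of each gene list from its own 10-mouse mean, with a row for each list, the number of genes tested in brackets, and a column for each mouse; the black line parts losartan from aliskiren. The rows of the 9 limb genes, the limb's transcription factors, the medulla and the principal cells are red in aliskiren mouse 4. The injury, stroma, macrophage and fat rows are darkest red in losartan mouse 3. Colours end at -1 and 1, so the fat row is equally dark in aliskiren mouse 3, at 2.17 against 4.62.

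Readouts of damage in the same mice were set against each gene. Havcr1, the gene of the injury marker KIM-1, ranged from 5.41 to 10.76, Col1a1, a chain of type I collagen, from 5.63 to 8.51, and Lrp2, the proximal tubule receptor megalin, from 12.50 to 13.27. Of the 27 relations of 9 genes to these 3 readouts over 10 mice, 0 passed a permutation test with Benjamini-Hochberg adjustment, and 3 had an unadjusted p under 0.05 by Pearson's r and 3 by Spearman's rho. With Havcr1, 7 of the 9 genes had a negative r, and with Col1a1 7 did. The share of negative r over all genes tested was not computed, so these counts cannot be called particular to the limb genes.

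The relation of Egf to Col1a1 had r = -0.72 (rho = -0.45, permutation p = 0.0413 and 0.188, adjusted p = 0.371 and 0.801), and r was -0.02 without losartan mouse 3 and aliskiren mouse 1, the mice farthest from the median of Col1a1. Egf with Lrp2 had r = 0.75 (rho = 0.42, permutation p = 0.055 and 0.234, adjusted p = 0.371 and 0.801), and 0.00 without losartan mice 3 and 4. Without losartan mouse 3 alone, r was -0.08 for Egf with Col1a1 and -0.05 for Egf with Lrp2, so both relations rest on that mouse. Ppp1r1b with Col1a1 had r = -0.71 (rho = -0.66, permutation p = 0.0302 and 0.0425, adjusted p = 0.371 and 0.358), and -0.39 without the same pair of mice as for Egf. By rank, Kcnj1 with Col1a1 had the smallest p of the relations, with rho = -0.71 (r = -0.51, permutation p = 0.0255 and 0.13, adjusted p = 0.358 and 0.452), and its r was -0.32 without that pair of mice. Cldn16 went the other way from most of the limb genes, with r = 0.64 with Havcr1 (rho = 0.65, permutation p = 0.0463 and 0.0489, adjusted p = 0.371 and 0.358). Its r was 0.52 without losartan mice 3 and 5 and 0.68 after the mean of each drug group was subtracted. Umod with Havcr1 was at r = -0.27 (rho = -0.15, permutation p = 0.455 and 0.682, adjusted p = 0.585 and 0.801). The labels give no batch, so no values within batches could be computed, and 5 mice per drug are too few for r within a drug.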

How the data were processed

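Cortex RNA of 10 mice, 100 ng each, was turned into biotinylated cRNA and read on Affymetrix arrays, per the labels' protocols. The authors deposited log2 values for each probe set, and the submitters' processing notes name RMA and Expression Console 1.1. RMA brings the arrays to a common distribution, so an overall difference in RNA amount is no longer visible. Arrays have no depth, and 5 per group limit the precision.

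Of 45037 probe sets that are no controls, 34945 had 1 gene symbol in the platform annotation. A gene was tested where its probe set of highest mean reached the median of all probe sets, 5.53. Differences were fitted over all genes tested with limma 3.58.1 in R 4.3.3 (lmFit, eBayes, two-sided, Benjamini-Hochberg at 0.05), treatment as the only term. Fits were tested on simulated data. Relations over mice used 100000 permutations (numpy 2.4.6), and figures matplotlib 3.10.9. Alternatives covered the filter, scaling, probe set, variance model, array weights, the fat list as a covariate, mouse number and each mouse left out.

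The 9 genes, the lists and the rule for named genes were chosen with earlier results of these data known. The rule took up to 3 genes of smallest p per list, the 5 genes most like Umod and Slc12a1, and fixed readouts. The text names a part of these, and genes of the lists without a value were not analysed here.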

Additional observations from a re-analysis of the deposited data

Results flagged for a closer look

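In groups of 5, a mouse was singled out where its gap to the next mouse exceeded 0.71 of the range of its group, which chance gives in about 1 of 20 groups. Of 76 groups looked at, 5 had such a mouse, and 1 of these was in a thick ascending limb gene. Ppp1r1b stood at 7.24 in aliskiren mouse 4, above the next aliskiren mouse at 6.82. Aliskiren mouse 4 also stood apart in Slc5a3, at 11.995 against 10.81, and in Ddx46, at 9.25 against 9.15. Kcnj16 stood at 11.96 in losartan mouse 3, below the next losartan mouse at 12.27. Slc12a3 stood at 12.58 in losartan mouse 1, above the next at 11.92.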

How the results depend on the processing

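With limma, 0 genes passed under every alternative run, among them mouse number as a replicate block (0 genes), array weights, other scalings and filters and each mouse left out. At an unadjusted p under 0.05 limma had 542 genes. Mice of equal number were not treated as pairs: the correlation of their deviations was -0.06, -0.23, -0.03, 0.42 and 0.23 for numbers 1 to 5, and 2 of 5 losartan mice correlated best with their own number. The alternatives that leave out losartan mouse 3 together with aliskiren mouse 1 or 4, and the one with the medulla list as a covariate, were chosen after seeing the data, as were the correlations with gene lists without those mice.

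The genes with a lower mean numbered 3 of 9, and 1 with a filter at the 75th percentile, which leaves fewer genes, 5 without losartan mouse 3 and aliskiren mouse 4, and 3 to 5 with single mice left out, highest without losartan mouse 3. The median difference was -0.16 without both mice, against 0.20, and 0.03 with array weights, where 4 genes were lower. It ran from -0.01 to 0.27 with single mice left out. Egf turned to -0.12 with array weights and to -0.15 without losartan mouse 3 and aliskiren mouse 1. Without losartan mouse 3 and aliskiren mouse 4, Kcnj1 was at -0.17, Egf at -0.27, Slc9a3 at -0.013, Slc5a3 at -0.10, Irx2 at -0.10, Methig1 at -0.00282 and Ddx46 at -0.00184. With single mice left out, Kcnj1 ran from -0.12 to 0.12, Egf from -0.15 to 0.35, Slc5a3 from -0.022 to 0.39 and Cryab from -0.022 to 0.48. Cldn10 stayed between 0.24 and 0.41 under all settings. The cause of these shifts was not tested.

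Relations over mice also turned. Without the 2 mice farthest in the readout, r was 0.145 for Umod and 0.155 for Slc12a1 with Col1a1, and -0.174, -0.139 and -0.605 for Umod, Slc12a1 and Cldn10 with Lrp2. Cldn10 with Lrp2 was at -0.031 once group means were subtracted. With single mice left out, r with Havcr1 ran from -0.691 to 0.161 for Umod, -0.52 to 0.268 for Slc12a1, -0.26 to 0.421 for Cldn10 and -0.657 to 0.0455 for Egf. With Col1a1 it ran from -0.696 to 0.0228 for Umod, -0.623 to 0.0376 for Slc12a1 and -0.259 to 0.516 for Cldn10. With Lrp2 it ran from -0.251 to 0.685 for Umod, -0.101 to 0.687 for Slc12a1, -0.0552 to 0.308 for Kcnj1, -0.127 to 0.483 for Cldn10, -0.0487 to 0.807 for Egf, -0.214 to 0.312 for Bsnd and -0.0762 to 0.656 for Ppp1r1b. Each of these relations changed sign when losartan mouse 3 was left out, except Cldn10 with Havcr1 and with Col1a1, which did so without aliskiren mouse 1 or losartan mouse 4 and, for Col1a1, losartan mouse 1.

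The 5 arrays a group limit the precision, and the printed 95% intervals give the differences that these data do not exclude.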
